A study of Mus musculus with 18 samples.

Results

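KIT, the receptor tyrosine kinase that binds stem cell factor (SCF, the product of Scf, also called Kitl), and 9 genes of proteins that act next to it on the inner side of the membrane were followed through sorted erythroid progenitors of Scf mutant mice. The 10 genes were Kit, Grb2, Sos1, Gab2, Shc1, Ptpn11, Cbl, Lyn, Sh2b3 and Ptpn6, chosen by name for their place in KIT signalling, with earlier results of these data known, out of 21967 genes in the count table. All 10 passed the filter on low counts in every comparison.

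RNA was sequenced from CFU-E and PreCFU-E, where PreCFU-E are the earlier and CFU-E (colony-forming unit erythroid) the later progenitors of the red cell lineage, both sorted from bone marrow enriched for KIT protein. Scf KO/FL;Lepr-Cre mice carried a null Scf copy, a floxed Scf copy and Cre driven from the leptin receptor locus, which is active in bone marrow stromal cells, and they are called Lepr-Cre mice here. Scf KO/FL mice carried the null and the floxed copy without Cre, and Scf FL/FL mice carried floxed copies alone. There were 3 mice per genotype, lettered A, B and C, with B female and A and C male, and both cell types were taken from each of the 9 mice, which makes 6 groups of 3 and 18 libraries. The difference of Lepr-Cre from FL/FL mice therefore joins the null copy to the Cre, that of Lepr-Cre from KO/FL mice is the presence of Cre alone, and no group carried Cre without the null copy. The labels used here give no age.

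SCF pairs KIT receptors, which then phosphorylate each other on tyrosines. GRB2 docks there, directly or through SHC1, and brings the exchange factor SOS1 to RAS, while GAB2 and the phosphatase SHP-2 (Ptpn11) widen the signal to ERK and to phosphoinositide 3-kinase. LYN is a SRC-family kinase that associates with KIT, and the ubiquitin ligase CBL, the adaptor LNK (Sh2b3) and the phosphatase SHP-1 (Ptpn6) restrain it, and erythroid progenitors depend on this pathway for their expansion.

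Library totals ranged from 3541066 counts (PreCFU-E of KO/FL mouse A) to 9389122, and 10782 to 13536 genes were detected. The fewest genes were detected in CFU-E of Lepr-Cre mouse B. Erythroid markers were read in every group, with 12 of 12 above 0 and summed levels of 5524 to 8196 CPM (counts scaled to the library total and its TMM factor). Kitl had 2 counts in all 18 libraries, so these progenitors do not check the deletion in the stroma. Values are CPM unless stated, values after ± are SD over 3 mice, and a gene was called at an adjusted p (Benjamini-Hochberg, edgeR's quasi-likelihood test) under 0.05.

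Kit (chromosome 5, 75574916 to 75656722, plus strand, GRCm38) is the member on which most results turn, and its promoter is shown because its RNA level moved with both genotype and cell type. The line gives the 250 bases before the RefSeq start (GRCm38.p6, chr5:75574737-75574986, plus strand), with capitals marking the GC box GGGCGG.

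Kit promoter: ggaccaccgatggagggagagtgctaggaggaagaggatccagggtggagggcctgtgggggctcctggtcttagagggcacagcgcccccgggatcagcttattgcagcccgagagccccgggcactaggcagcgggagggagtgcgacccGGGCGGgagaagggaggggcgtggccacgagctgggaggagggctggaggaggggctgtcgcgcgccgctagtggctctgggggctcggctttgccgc

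The GC box (searched on both strands) was found 1 time in this window, and GATA, the core letters bound by GATA factors, 0 times on either strand. Of 32851 promoter windows of this length, 32.7% held the GC box and 53.6% held GATA. The Kit window had 70.8% G and C, against a median of 52.4% over all windows. These are matches of letters in a short window, and the enhancers of Kit lie outside it. Windows were listed for 8 members, and Gab2 and Lyn had none.

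Per kilobase of exon, a scale on which genes can be set against each other, Kit was the most abundant member in PreCFU-E of every genotype. It averaged 49.0 CPM per kilobase in Lepr-Cre, 80.1 in KO/FL and 90.7 in FL/FL mice. In CFU-E, Kit averaged 27.7 CPM per kilobase in Lepr-Cre, 42.3 in KO/FL and 46.4 in FL/FL mice. It was 2nd of 10 in KO/FL and FL/FL mice, below Ptpn6 at 45.0 and 46.6, and 4th of 10 in Lepr-Cre mice. There it stood below Ptpn6 at 39.2, Ptpn11 at 33.3 and Grb2 at 29.1 CPM per kilobase. Its rank depends on the length used. With the length of the coding transcript, Kit was 2nd of 10 in Lepr-Cre CFU-E and 1st in KO/FL and FL/FL CFU-E. Sh2b3 was the lowest member in 4 of the 6 groups on the exon scale, at 4.87 to 6.69 CPM per kilobase over all groups.

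**Figure D1:**
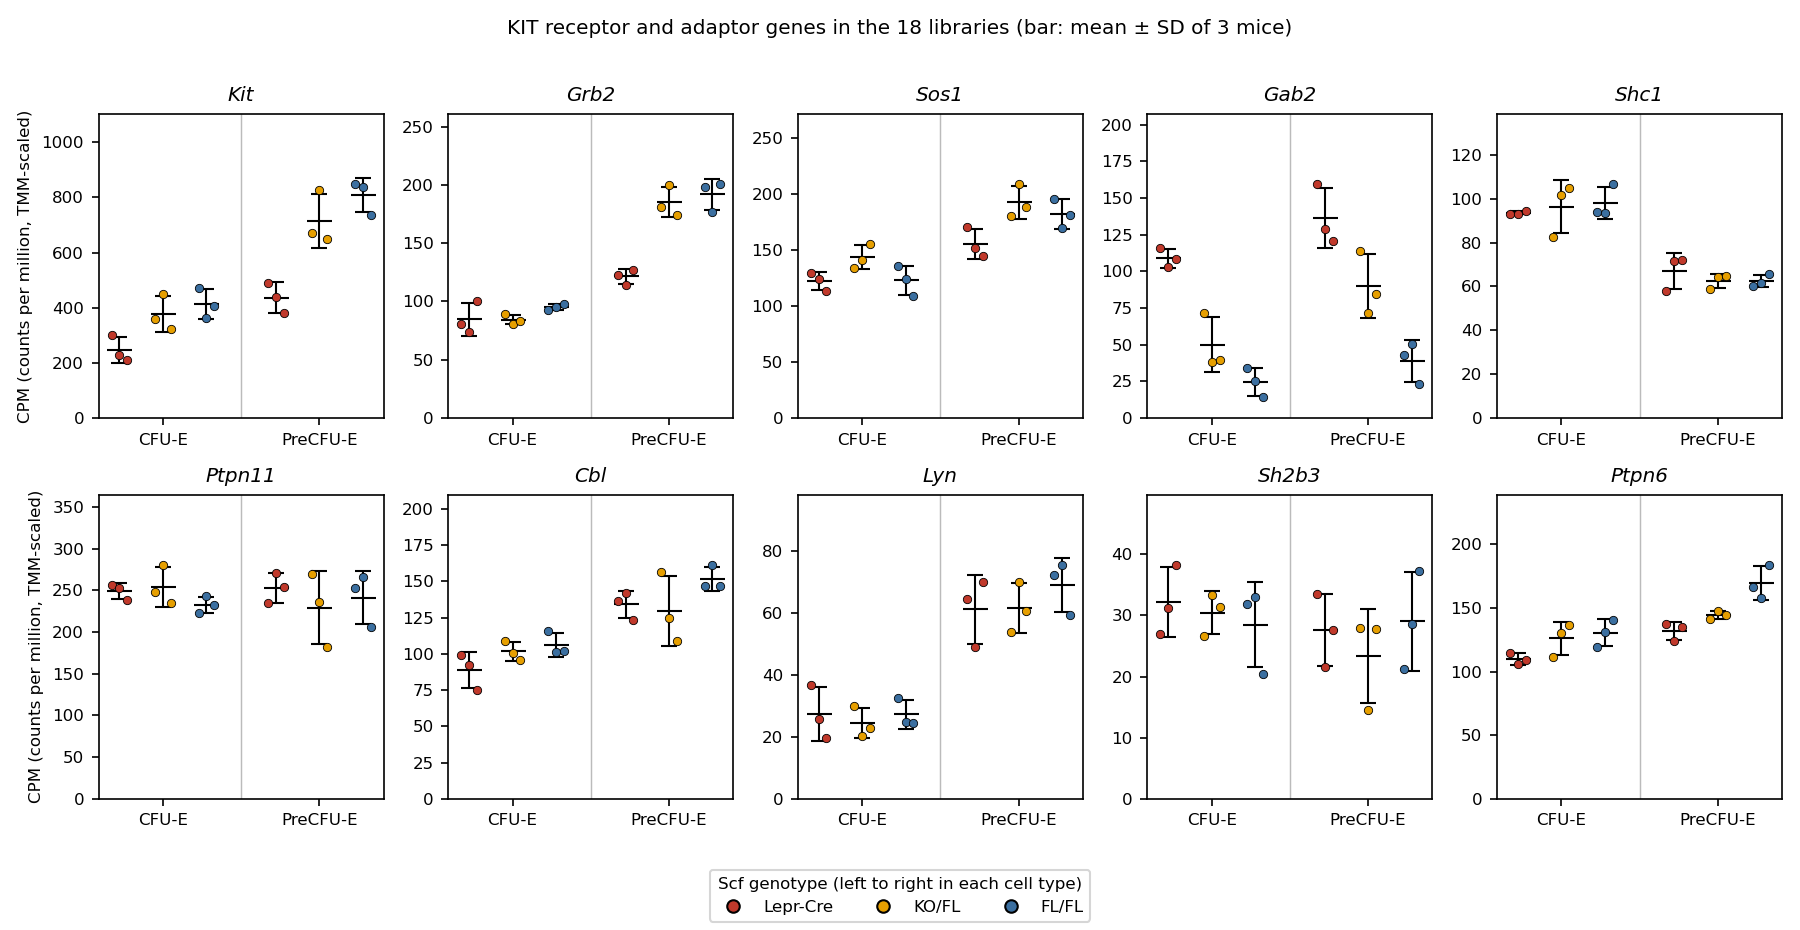
Each panel plots 1 gene in CPM by library, with CFU-E on the left and PreCFU-E on the right and, within each, Lepr-Cre, KO/FL and FL/FL mice; points are mice and bars the mean ± SD of 3. Kit is lowest in Lepr-Cre mice in both cell types, at 211 to 299.7 CPM in CFU-E and 380.3 to 490.0 CPM in PreCFU-E, Gab2 is highest there, and Ptpn11 stays between 182 and 281 CPM throughout.

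Kit was lower in Lepr-Cre mice than in both other genotypes, in both cell types. In PreCFU-E, Kit stood at 490.0, 439 and 380.3 CPM in Lepr-Cre mice A, B and C, at 669, 825 and 648 CPM in KO/FL mice, and at 848, 839 and 736 CPM in FL/FL mice. The 3 Lepr-Cre libraries lay below all 6 others, while KO/FL and FL/FL mice overlapped. Against FL/FL mice the mean was 437 ± 54.9 in Lepr-Cre and 808 ± 62.0 CPM in FL/FL mice, a log2 fold change of -0.88 (SE 0.12, adjusted p = 4.58e-05). Against KO/FL mice, which averaged 714 ± 96.4 CPM, the log2 fold change was -0.71 (SE 0.12, adjusted p = 0.00129). KO/FL and FL/FL mice did not differ past the threshold (log2 fold change -0.17, 95% interval -0.42 to 0.07, adjusted p = 1).

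In CFU-E, Kit stood at 299.7, 229 and 211 CPM in Lepr-Cre mice, at 359, 449 and 321 CPM in KO/FL mice, and at 473, 363 and 404 CPM in FL/FL mice. The Lepr-Cre libraries were again below all 6 others, with mouse A of the Lepr-Cre group close to mouse C of the KO/FL group. The log2 fold change was -0.73 (SE 0.14, adjusted p = 0.00539) against FL/FL mice, a call that did not hold with limma on log2(RPKM + 1) (-0.69, adjusted p = 0.0688) or log2(RPKM + 0.1) (-0.77, adjusted p = 0.0687). Against KO/FL mice it was -0.60 (SE 0.14, adjusted p = 0.0486). This call did not hold with limma (adjusted p = 0.240 and 0.230 on the same scales) or with DESeq2 size factors (0.0547), nor without KO/FL mouse A (adjusted p = 0.0825), KO/FL mouse B (0.285), Lepr-Cre mouse B (0.178) or Lepr-Cre mouse C (0.145). KO/FL and FL/FL mice overlapped (log2 fold change -0.13, 95% interval -0.42 to 0.17). In order of mean CPM, lowest first, the groups were CFU-E of Lepr-Cre, KO/FL and FL/FL mice, then PreCFU-E of Lepr-Cre, KO/FL and FL/FL mice. Neighbours in this order overlapped, PreCFU-E of Lepr-Cre and CFU-E of FL/FL mice included, except that Lepr-Cre stood apart from KO/FL mice in each cell type.

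In bulk RNA, fewer cells with high Kit and less Kit RNA per cell cannot be told apart, and the cells had been enriched for KIT protein before the sort. Summed markers of other cells varied by genotype, some lower with Kit in Lepr-Cre mice and some higher there. The 10 mast cell markers, a lineage rich in KIT, summed to 48.0 to 74.4 CPM in Lepr-Cre, 129 to 146 in KO/FL and 173 to 196 CPM in FL/FL PreCFU-E, and to 8.87 to 32.3, 32.7 to 39.0 and 32.9 to 40.7 CPM in CFU-E of Lepr-Cre, KO/FL and FL/FL mice. Gata2, which progenitors also express, made up most of that sum in PreCFU-E, with means of 56.7 CPM in Lepr-Cre, 132 in KO/FL and 184 CPM in FL/FL mice. Other mast cell markers were read at low levels. In PreCFU-E of the same genotypes, Cpa3 averaged 0.337, 1.80 and 1.43 CPM and Hdc 0.137, 0.907 and 0.424 CPM. Ms4a2 averaged 0.822, 0.376 and 0.552 CPM there, highest in Lepr-Cre mice. The mast cell proteases Cma1, Mcpt4, Tpsb2 and Tpsab1 had 0 counts in all 18 libraries. The 9 macrophage markers summed to 79.8 to 109 CPM in Lepr-Cre, 214 to 377 in KO/FL and 309.8 to 410.5 CPM in FL/FL PreCFU-E, and Apoe alone averaged 94.0, 317 and 360 CPM in these groups. Cd163 averaged 2.93, 3.21 and 2.69 CPM and Cd68 1.11, 0.771 and 0.619 CPM in them. Means of C1qa, C1qb, Adgre1 and Mertk were at most 0.446 CPM, and C1qc was at 0 in all of these groups. In CFU-E, the 11 stem and early progenitor markers summed to 25.7 to 35.9 CPM in Lepr-Cre, 15.7 to 20.2 in KO/FL and 14.1 to 21.4 CPM in FL/FL mice. The 8 B cell markers summed there to 2.05 to 14.9, 0.861 to 4.97 and 0.353 to 2.52 CPM. In PreCFU-E, the stem and early progenitor sums overlapped, at 44.2 to 74.5, 65.9 to 81.9 and 48.2 to 69.1 CPM in the same genotypes. Erythroid markers summed to 6096 to 6761 CPM in Lepr-Cre, 5669 to 6051 in KO/FL and 5524 to 5951 CPM in FL/FL PreCFU-E. The part of these markers in the Kit result was not tested.

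Of the adaptors that lead to RAS, only Grb2 differed by genotype past the threshold, and it did so in PreCFU-E. Grb2 (chromosome 11, 115644045 to 115708597, minus strand) stood at 123, 114 and 127 CPM in Lepr-Cre PreCFU-E, at 181, 199.8 and 174 CPM in KO/FL, and at 198, 176 and 201 CPM in FL/FL PreCFU-E. The 3 Lepr-Cre libraries lay below all 6 others. The log2 fold change was -0.66 (SE 0.11, adjusted p = 0.000479) against FL/FL mice and -0.61 (SE 0.11, adjusted p = 0.00256) against KO/FL mice. In CFU-E, Grb2 stood at 80.2, 73.5 and 100.4 CPM in Lepr-Cre, at 89.2, 80.9 and 83.3 CPM in KO/FL, and at 93.0, 95.05 and 98.2 CPM in FL/FL mice. Lepr-Cre mice overlapped both other genotypes there, with log2 fold changes of -0.16 (95% interval -0.44 to 0.13) against FL/FL and 0.01 (95% interval -0.28 to 0.30) against KO/FL mice.

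Sos1 (chromosome 17, 80393751 to 80480453, minus strand), the exchange factor that GRB2 carries, stood at 171, 151 and 145 CPM in Lepr-Cre PreCFU-E, at 180.3, 209 and 189 CPM in KO/FL, and at 195, 169.5 and 181 CPM in FL/FL PreCFU-E. Lepr-Cre mice lay below KO/FL mice (log2 fold change -0.31, adjusted p = 0.181) and overlapped FL/FL mice (-0.22, adjusted p = 0.266). With the replicate letter as a block the first of these passed (log2 fold change -0.31, adjusted p = 0.0227). In CFU-E, Sos1 did not differ past the threshold in any genotype comparison, with log2 fold changes between -0.22 and 0.23. Sos1 and Sh2b3 each overlap another counted gene on the opposite strand (Arhgef33 and Atxn2), and with the strand setting of the counting unknown here, their levels are less certain.

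Shc1, the adaptor that links phosphorylated receptors to GRB2, and Ptpn11 showed no genotype call in either cell type. Shc1 (chromosome 3, 89418443 to 89430027, plus strand) ranged over 57.7 to 72.0 CPM in Lepr-Cre, 58.9 to 64.5 in KO/FL and 60.0 to 65.6 CPM in FL/FL PreCFU-E. Its log2 fold change in Lepr-Cre against FL/FL mice was 0.11 (95% interval -0.20 to 0.41) in PreCFU-E and -0.05 (95% interval -0.33 to 0.22) in CFU-E. For Ptpn11 (chromosome 5, 121130533 to 121191397, minus strand) the same comparison gave 0.07 (95% interval -0.20 to 0.34) in PreCFU-E and 0.12 (95% interval -0.10 to 0.33) in CFU-E.

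In Lepr-Cre against FL/FL mice, Gab2 moved the other way from Kit, and by more, in both cell types. In PreCFU-E of Lepr-Cre against KO/FL mice, it moved the other way from Kit but by less. Gab2 (chromosome 7, 97081586 to 97308946, plus strand), the scaffold that binds GRB2, SHP-2 and phosphoinositide 3-kinase, stood at 159.5, 129 and 121 CPM in Lepr-Cre PreCFU-E, at 114, 71.8 and 84.6 CPM in KO/FL, and at 42.7, 50.6 and 23.1 CPM in FL/FL PreCFU-E. In CFU-E it stood at 116, 103 and 108 CPM in Lepr-Cre, at 71.7, 38.2 and 39.9 CPM in KO/FL, and at 33.8, 24.99 and 14.5 CPM in FL/FL mice. In both cell types the 3 genotypes did not overlap, with KO/FL between the others. Of all tested genes, 0.582% in PreCFU-E and 0.52% in CFU-E were ordered in this rising way without overlap.

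Against FL/FL mice, Gab2 in Lepr-Cre mice was 3.52-fold higher in PreCFU-E (log2 fold change 1.81, SE 0.26, adjusted p = 0.00156) and 4.56-fold higher in CFU-E (2.19, SE 0.29, adjusted p = 0.00083). KO/FL against FL/FL mice gave log2 fold changes of 1.21 (SE 0.26, unadjusted p = 0.000613) in PreCFU-E and 1.06 (SE 0.29, unadjusted p = 0.00286) in CFU-E, and neither passed after adjustment (adjusted p = 1 in each). With the replicate letter as a block the PreCFU-E value passed (log2 fold change 1.24, adjusted p = 0.00544), as it did with DESeq2 (adjusted p = 0.00155). Lepr-Cre against KO/FL mice gave 0.60 in PreCFU-E (SE 0.25, adjusted p = 0.304) and 1.13 in CFU-E (SE 0.28, adjusted p = 0.0778). With the block these were 0.60 (adjusted p = 0.037) and 1.20 (adjusted p = 0.000257). The Gab2 call of KO/FL mice thus depended on the fit, while that of Lepr-Cre against FL/FL mice passed in each fit run.

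LYN is a kinase that acts with KIT and with the erythropoietin receptor. Lyn (chromosome 4, 3678115 to 3813122, plus strand) overlapped between the 3 genotypes in both cell types. It averaged 61.2 ± 11.01 CPM in Lepr-Cre, 61.6 ± 8.05 in KO/FL and 69.1 ± 8.66 CPM in FL/FL PreCFU-E, and 27.4 ± 8.69, 24.4 ± 4.94 and 27.2 ± 4.62 CPM in CFU-E of the same genotypes. In Lepr-Cre against FL/FL mice its log2 fold change was -0.17 (95% interval -0.51 to 0.17) in PreCFU-E and 0.03 (95% interval -0.47 to 0.54) in CFU-E.

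Among the genes that restrain KIT, none passed in a genotype comparison with edgeR on the 9 libraries of a cell type without a block. Ptpn6 (chromosome 6, 124720707 to 124738714, minus strand) came nearest, at 137, 124 and 135 CPM in Lepr-Cre PreCFU-E, 141, 148 and 144 CPM in KO/FL, and 167, 158 and 184 CPM in FL/FL PreCFU-E. The 3 genotypes did not overlap, and 0.698% of tested genes were ordered in this falling way. The log2 fold change of Lepr-Cre against FL/FL mice was -0.36 (SE 0.11, adjusted p = 0.0541). It passed with the replicate letter as a block (adjusted p = 0.00578), with DESeq2 (0.0305) and with all 18 libraries in the fit (0.0469). In CFU-E, Ptpn6 stood at 115, 106 and 109 CPM in Lepr-Cre mice, below the FL/FL mice at 119, 131 and 141 CPM (log2 fold change -0.23, adjusted p = 0.309).

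Cbl (chromosome 9, 44142976 to 44234049, minus strand), which marks activated KIT for degradation, was 137, 142 and 124 CPM in Lepr-Cre PreCFU-E and 147, 162 and 147 CPM in FL/FL PreCFU-E, groups that did not overlap (log2 fold change -0.17, adjusted p = 0.498). In CFU-E it was 99.3, 92.6 and 75.0 CPM in Lepr-Cre and 116, 102 and 102 CPM in FL/FL mice, again without overlap (log2 fold change -0.24, adjusted p = 0.34). Of all tested genes, 25.2% in PreCFU-E and 22.2% in CFU-E did not overlap between these genotypes, in either direction. Cbl in KO/FL mice was 156, 125 and 109 CPM in PreCFU-E and 109, 100.3 and 96.0 CPM in CFU-E. These KO/FL values overlapped both other genotypes in each cell type. Sh2b3 (chromosome 5, 121815488 to 121837646, minus strand) ranged over 14.5 to 38.3 CPM in all libraries, and all genotypes overlapped. With the fewest counts of the 10, its interval for Lepr-Cre against FL/FL PreCFU-E was -0.61 to 0.48 on the log2 scale.

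**Figure D2:**
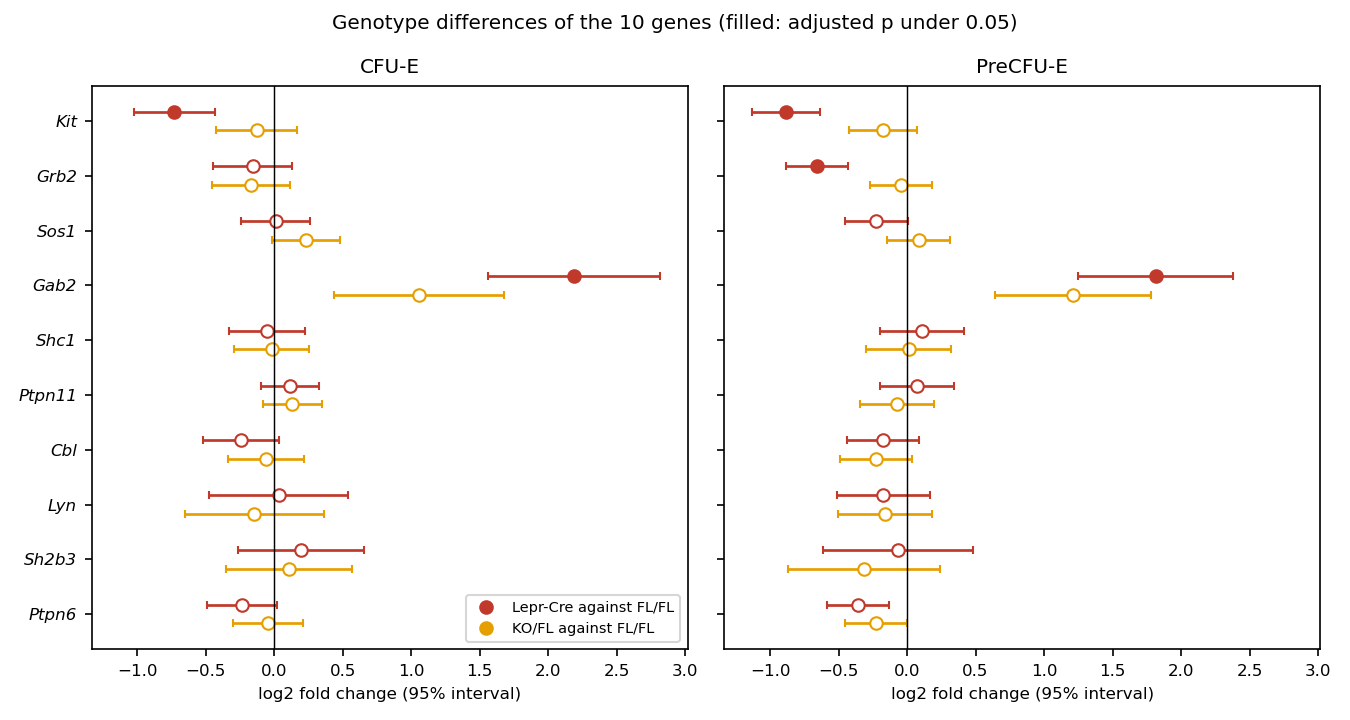
Log2 fold changes of the 10 genes with 95% intervals against FL/FL mice, for Lepr-Cre (red) and KO/FL mice (orange), CFU-E on the left and PreCFU-E on the right; filled points passed an adjusted p of 0.05. Lepr-Cre points are filled for Kit and Gab2 in both cell types and for Grb2 in PreCFU-E, and no KO/FL point is filled.

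Counted over the members, Lepr-Cre against FL/FL PreCFU-E had 3 of 10 called, 1 higher and 2 lower, where 6.13% of all 10309 tested genes were called. Groups did not overlap for 5 of 10, against 25.2% of all genes. Lepr-Cre against KO/FL PreCFU-E had 2 of 10 called, both lower, against 2.18% of all genes. In CFU-E, Lepr-Cre against FL/FL mice had 2 of 10 called, 1 higher and 1 lower, against 4.83% of 10192 tested genes, and groups did not overlap for 4 of 10, against 22.2%. Lepr-Cre against KO/FL CFU-E had 1 of 10 called, against 1.01%. KO/FL against FL/FL mice had 0 of 10 called in either cell type, and edgeR called 0% of all genes in each, with 1 member (Gab2) at an unadjusted p under 0.05 in each, where 3.4% of all genes in PreCFU-E and 2.06% in CFU-E were. The comparisons of Lepr-Cre and of KO/FL with FL/FL mice share the FL/FL libraries. The median log2 fold change of the 10 members in Lepr-Cre against FL/FL mice was -0.17 in PreCFU-E and -0.02 in CFU-E, where that of all tested genes was 0.00 in both.

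More members were called for the step between the cell types than for genotype. In Lepr-Cre mice, 5 of 10 members were called in CFU-E against PreCFU-E, 1 higher and 4 lower, where 7.25% of 10732 tested genes were called. It was 5 of 10 in KO/FL mice, against 14.1% of all genes, and 7 of 10 in FL/FL mice, against 18.3%. These counts are from the fit without a block, which leaves out that both cell types came from the same mice. With the mouse as a block no call was lost. Sos1 in Lepr-Cre, Gab2 and Cbl in KO/FL and Gab2 in FL/FL mice passed in addition. Kit, Grb2 and Lyn fell and Shc1 rose in each of the 3 genotypes.

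Kit in CFU-E against PreCFU-E had a log2 fold change of -0.82 in Lepr-Cre (SE 0.14, adjusted p = 0.000403), -0.92 in KO/FL (SE 0.14, adjusted p = 2.98e-05) and -0.97 in FL/FL mice (SE 0.14, adjusted p = 1.24e-05). Within single mice the step of Kit lay between -1.21 and -0.71 on the log2 scale, downward in 9 of 9 mice. Lyn fell by the largest factor, with log2 fold changes of -1.15 in Lepr-Cre (adjusted p = 0.000524), -1.34 in KO/FL (adjusted p = 2.9e-05) and -1.35 in FL/FL mice (adjusted p = 1.86e-05). Shc1 was the only member called higher in CFU-E, at 93.1, 93.2 and 94.4 CPM in Lepr-Cre CFU-E against 57.7, 71.4 and 72.0 CPM in Lepr-Cre PreCFU-E. In KO/FL mice it stood at 82.7, 102 and 105 CPM in CFU-E against 58.9, 64.5 and 64.5 CPM in PreCFU-E, and in FL/FL mice at 93.9, 93.5 and 107 CPM against 60.0, 61.7 and 65.6 CPM. The cell types did not overlap for Shc1 in any genotype. Its log2 fold change was 0.48 in Lepr-Cre (adjusted p = 0.0216), 0.62 in KO/FL (adjusted p = 0.00128) and 0.65 in FL/FL mice (adjusted p = 0.000533), and the Lepr-Cre call did not hold without mouse A of PreCFU-E (adjusted p = 0.16) or without mouse B (0.0605) or C (0.0718) of CFU-E, with limma (0.0566 and 0.0795), or in the 6 Lepr-Cre libraries alone (0.0515).

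Grb2 fell at the step with a log2 fold change of -0.52 in Lepr-Cre (SE 0.12, adjusted p = 0.00438), -1.13 in KO/FL (SE 0.12, adjusted p = 3.03e-08) and -1.01 in FL/FL mice (SE 0.12, adjusted p = 1.47e-07). Its Lepr-Cre PreCFU-E level lay between the 6 other PreCFU-E libraries and all 9 CFU-E libraries, apart from both. The difference between the steps did not pass in the interaction test, at 0.49 against FL/FL (adjusted p = 0.29) and 0.61 against KO/FL mice (adjusted p = 0.301). With the mouse as a block the second was 0.60 (adjusted p = 0.0422). In the 3 interactions 0 members passed, with Grb2 alone at an unadjusted p under 0.05 for Lepr-Cre against FL/FL (8.17% of all genes were) and against KO/FL mice (5.3% were), and edgeR called 0.354% of all genes for Lepr-Cre against FL/FL and 0% for the other interactions.

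Sos1 at the step had a log2 fold change of -0.35 in Lepr-Cre mice (adjusted p = 0.0518, 0.0109 with the mouse as a block and 0.0353 with DESeq2). It fell in KO/FL (-0.43, adjusted p = 0.00748) and FL/FL mice (-0.57, adjusted p = 0.000344). The KO/FL call did not hold without mouse B of PreCFU-E (adjusted p = 0.0593) or mouse A of CFU-E (0.0511). Cbl fell in Lepr-Cre (-0.59, adjusted p = 0.00362) and FL/FL mice (-0.51, adjusted p = 0.00484). In KO/FL mice it was -0.35 (adjusted p = 0.0743, 0.0218 with the block and 0.0202 without mouse C of PreCFU-E). Ptpn6 was called in FL/FL mice alone (-0.38, adjusted p = 0.0145), a call lost without mouse C of PreCFU-E (adjusted p = 0.0855) or mouse A (0.0818) or B (0.0515) of CFU-E, and the difference between the steps did not pass (interaction of Lepr-Cre against FL/FL mice 0.11, adjusted p = 0.949). Gab2 was lower in CFU-E in 9 of 9 mice but was not called without a block (adjusted p = 0.646 in Lepr-Cre, 0.107 in KO/FL and 0.193 in FL/FL mice). With the mouse as a block it passed in KO/FL (-0.89, adjusted p = 2.42e-06) and FL/FL mice (-0.68, adjusted p = 0.000497). It also passed in KO/FL mice with limma on log2(RPKM + 1) (adjusted p = 0.0392), in the 6 libraries of that genotype alone (0.0350) and without mouse A of CFU-E (0.0200), and in FL/FL mice without mouse C of PreCFU-E (0.0420). Ptpn11 went down in 5 of 9 mice and up in 4, and Sh2b3 down in 3 and up in 6.

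**Figure D3:**
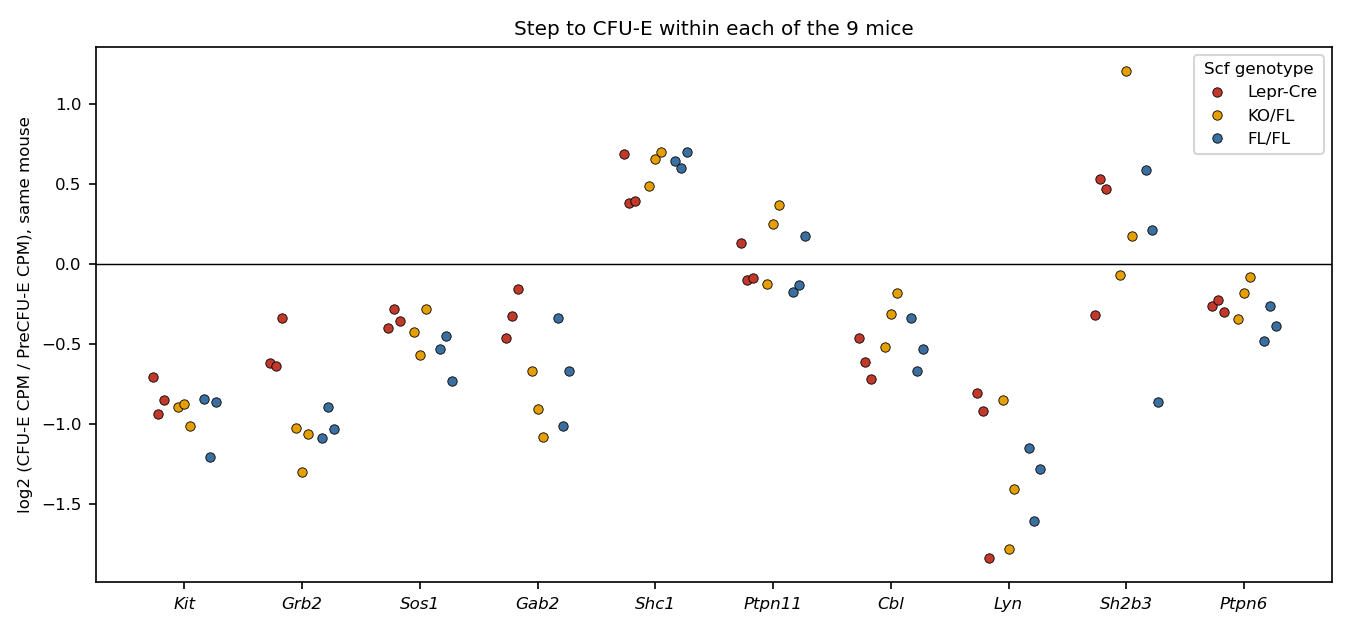
Each point is 1 mouse, as the log2 ratio of its CPM in CFU-E over PreCFU-E, by gene and genotype (Lepr-Cre, KO/FL and FL/FL from left to right within each gene). Points of Kit, Grb2, Sos1, Gab2, Cbl, Lyn and Ptpn6 are below 0 in 9 of 9 mice, those of Shc1 above 0 in 9 of 9, and the Grb2 points of Lepr-Cre mice sit closer to 0 than those of the other genotypes.

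Ratios of counts within a library do not depend on its total. Gab2 counts per 100 Kit counts were 32.6, 29.3 and 31.7 in Lepr-Cre PreCFU-E, 17.1, 8.70 and 13.04 in KO/FL, and 5.04, 6.03 and 3.13 in FL/FL PreCFU-E. In CFU-E they were 38.6, 44.8 and 51.3 in Lepr-Cre, 19.96, 8.50 and 12.4 in KO/FL, and 7.16, 6.88 and 3.58 in FL/FL mice. The 3 genotypes did not overlap on this ratio in either cell type. Gab2 alone already did not overlap between them, so the ratio adds no separate support. Grb2 counts per 100 Kit counts lay between 18.01 and 33.4 in 17 of 18 libraries, the exception being CFU-E of Lepr-Cre mouse C at 47.6. Both are ratios of unequal genes, with different lengths, and say nothing of which of the pair changed.

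**Figure D4:**
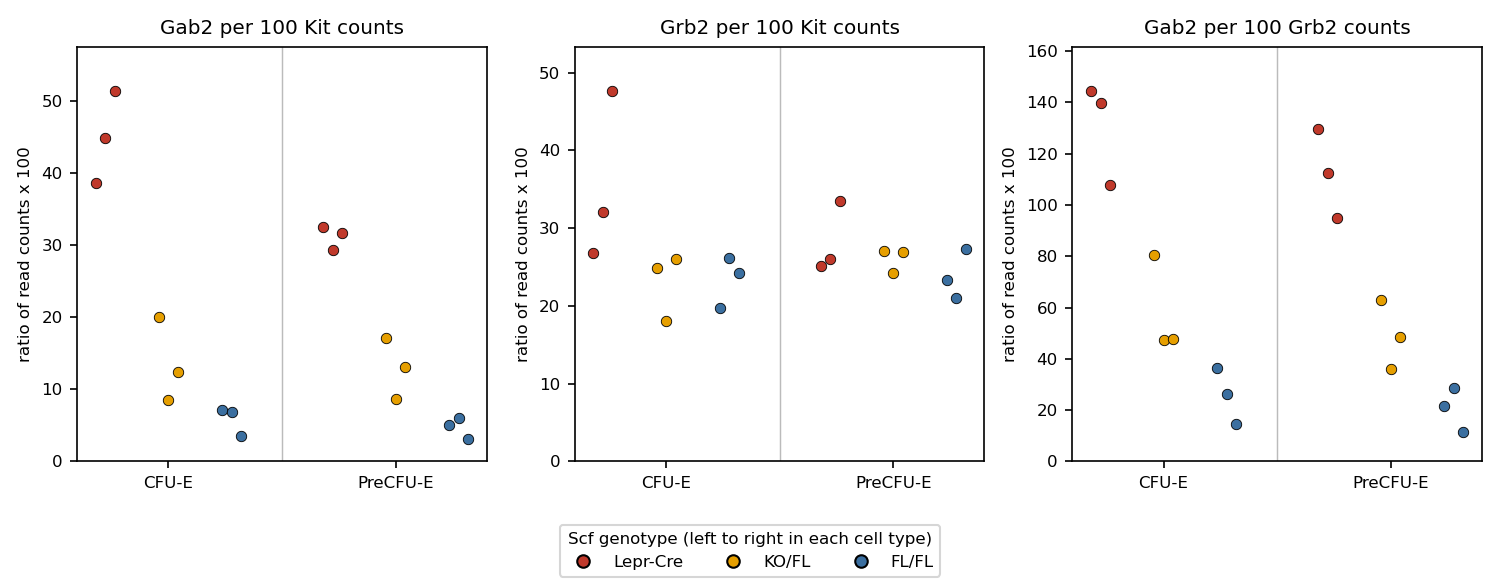
Ratios of read counts within each library, times 100, for Gab2 over Kit, Grb2 over Kit and Gab2 over Grb2; each panel has CFU-E on the left and PreCFU-E on the right, and within each Lepr-Cre, KO/FL and FL/FL mice. Gab2 per 100 Kit counts is 29.3 to 51.3 in the 6 Lepr-Cre libraries and 3.13 to 7.16 in the 6 FL/FL libraries.

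Other genes of the pathway were read from lists of known components, and in Lepr-Cre against FL/FL mice 6.13% of all tested genes were called in PreCFU-E and 4.83% in CFU-E. Of 18 tested adaptors and exchange factors, Lepr-Cre against FL/FL PreCFU-E had 2 higher and 3 lower. Gab1, the paralog of Gab2, was 83.4 ± 6.29 CPM in Lepr-Cre and 32.7 ± 1.54 CPM in FL/FL PreCFU-E (log2 fold change 1.36, adjusted p = 7.24e-06). Irs2, an insulin receptor substrate that serves as a docking protein, was 124 ± 11.5 CPM in Lepr-Cre and 33.4 ± 14.6 CPM in FL/FL PreCFU-E (1.89, adjusted p = 0.0132). Vav1, a haematopoietic exchange factor, fell (-0.49, adjusted p = 0.0103), as did Nck2 (-0.77, adjusted p = 0.0311) and Grb10 (-0.52, adjusted p = 0.0413). In CFU-E, 1 of 17 was called, a share near that of all genes (4.83%), with Irs2 higher (1.45, adjusted p = 0.00404). Gab1 stood at 117 ± 19.4 CPM in Lepr-Cre and 105 ± 20.96 CPM in FL/FL CFU-E (log2 fold change 0.18, adjusted p = 0.585), and its genotype difference was smaller in CFU-E than in PreCFU-E (interaction -1.19, adjusted p = 0.0035).

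Of 8 tested cytoplasmic tyrosine kinases, 2 were lower in Lepr-Cre than FL/FL PreCFU-E, Tec (-1.32, adjusted p = 0.0103) and Matk (-1.88, adjusted p = 0.0337), and in CFU-E 1 of 7 was lower, Jak2 (-0.42, adjusted p = 0.0332). The RAS-ERK list had 1 of 16 higher in PreCFU-E, Hras (0.64, adjusted p = 0.0397), and 1 of 16 lower in CFU-E, Nf1, which codes for a brake on RAS (-0.72, adjusted p = 0.0207), shares near those of all genes (6.13% and 4.83%). The phosphoinositide 3-kinase, AKT and phospholipase C list had 0 of 19 called in PreCFU-E. In CFU-E, 3 of 19 were higher, Pik3cd (1.15, adjusted p = 0.00271), Akt1 (0.42, adjusted p = 0.0291) and Pik3cb (0.53, adjusted p = 0.0462).

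Other restrainers of tyrosine kinase signalling had 4 of 17 lower and 2 higher in Lepr-Cre against FL/FL PreCFU-E, where 6.13% of all genes were called. The lower ones were Spred1 (-1.47, adjusted p = 5.56e-07), Ubash3b, a phosphatase-related gene (-1.26, adjusted p = 0.000608), Spred2 (-0.88, adjusted p = 0.00123) and Sh2b1 (-0.66, adjusted p = 0.00986). The higher ones were Pag1 (1.13, adjusted p = 0.0273) and Socs1. Socs1 was read at 3.14 ± 1.62 CPM in Lepr-Cre PreCFU-E and at 0 in FL/FL and KO/FL PreCFU-E. It passed the filter on low counts through the Lepr-Cre libraries alone, so its call adds no support. In CFU-E, where 4.83% of all genes were called, 5 of 16 were lower and 0 higher, led by Spred1 (-1.37, adjusted p = 2.27e-05) and Spred2 (-1.28, adjusted p = 0.000687), which restrain RAF, and Cblb, the paralog of Cbl (-0.84, adjusted p = 0.00925). The median log2 fold change of this list was -0.25 in PreCFU-E and -0.32 in CFU-E.

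Of 8 tested transcription factors known to act at the Kit gene, Gata2 (-1.70, adjusted p = 7.43e-08) and Myb (-1.12, adjusted p = 1.19e-06) were lower and Tal1 (0.48, adjusted p = 0.00838) was higher in Lepr-Cre than FL/FL PreCFU-E. Of all tested genes, 6.13% were called in that comparison. Gata1 averaged 227 ± 31.9 CPM in Lepr-Cre and 217 ± 9.71 CPM in FL/FL PreCFU-E (0.07, adjusted p = 0.811). In CFU-E, where 4.83% of all genes were called, Myb alone of this list was (-0.94, adjusted p = 0.000825). Of the class III receptors related to KIT and their ligands, 1 of 7 was tested in PreCFU-E, Pdgfrb, and it averaged 1.29 ± 0.056 CPM in Lepr-Cre and 6.49 ± 0.61 CPM in FL/FL mice (adjusted p = 0.0198).

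At the step to CFU-E in FL/FL mice, where 18.3% of all genes were called, 2 of 19 adaptors were higher and 6 lower, led by Gab1 (1.68, adjusted p = 2.76e-09) and Vav1 (-1.53, adjusted p = 2.82e-09). Of 9 kinases, 5 were lower and 0 higher, led by Syk (-1.89, adjusted p = 1.5e-07). Of 20 phosphoinositide 3-kinase and phospholipase C genes, 5 were lower and 2 higher, led by Pik3cd (-1.94, adjusted p = 2.66e-09), the catalytic subunit of white cells. The Gab1 rise was also called in Lepr-Cre (0.49, adjusted p = 0.0425) and KO/FL mice (1.27, adjusted p = 6.13e-07), in the direction opposite to that of Gab2.

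By shape of the 6 group means, 5 of 8064 genes with a mean of at least 10 CPM were listed as most like Kit: Skil, Iqgap2, Usp11, Timp2 and Rhoh. Skil was nearest, with a root mean square distance of 0.0346 on the centred log2 scale. Of the members, Grb2 was the closest, at rank 88 (distance 0.208), Cbl stood at 485, Sos1 at 537, and Gab2 at 7947 (distance 1.18). These ranks describe 6 group means and have no test.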

How the data were processed

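Each of the 18 libraries came from 5000 to 10000 sorted cells and 2 to 6 ng of total RNA, made with a stranded low-input kit, per the labels' protocols. The submitters' processing notes name STAR 2.5.2b, HTSeq and mm10, with HTSeq's version and strand setting and the annotation not given in the sources used here. Counts, as deposited, are whole reads per gene symbol without normalisation. RPKM, as deposited by the authors, follow the library total and a divisor for each gene. That number was within 10% of the GENCODE M21 exon length for 3.44% and of the gene span for 8.10% of 10615 genes, so RPKM were not used between genes, and levels per kilobase were computed from the counts and the exon lengths of GENCODE M21 on GRCm38. Promoter windows are from RefSeq.

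Genotypes were compared in the 9 libraries of a cell type, and cell types and the 3 interactions in all 18, with edgeR 4.0.16 in R 4.3.3 (TMM, filterByExpr with minimum count 10 and minimum total 15, robust quasi-likelihood test, two-sided, no block). Adjusted p are Benjamini-Hochberg values over all tested genes. SE is the log2 fold change over the root of F. Tests were run on simulated counts first. Alternatives were DESeq2 1.42.0 and its size factors, no filter, limma 3.58.1 on log2(RPKM + 1) and log2(RPKM + 0.1), another set of libraries in the fit, leaving out each library, and blocks.

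The members and lists were chosen with earlier results of these data known. Members are named in each comparison, and up to 4 called genes per list by smallest p; Gata1, Socs1, Pag1, Grb10 and, for CFU-E, Gab1 were named after their values were seen. A result for a further list gene is not reported here. Genes like Kit were ranked by the root mean square distance of centred log2 means (offset 0.5 CPM).

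Mice pair the libraries of both cell types by design (correlation of deviations from group means 0.111 to 0.197). Equal letters passed 0.1 in each pair of genotypes within a cell type, except CFU-E of Lepr-Cre and FL/FL mice (letter C at 0.0877), and were taken to pair the others. What the letters stand for is not given, and the pairing by letter was read from these same data. Only the B mice were female, so a block by letter also takes in sex. Mice are separate animals per the labels' sample numbers. Each member had 393 or more counts per group, and counting error was not separated from the spread between mice.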

Additional observations from a re-analysis of the deposited data

How the results depend on the processing

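Over the alternatives run, no log2 fold change of a member that was called reversed. Of the genotype comparisons, Kit, Grb2 and Gab2 in PreCFU-E and Gab2 in CFU-E of Lepr-Cre against FL/FL mice were called in each. So were Kit and Grb2 in PreCFU-E of Lepr-Cre against KO/FL mice. The number of the 10 members called changed by more than 1.5 times as follows. For Lepr-Cre against KO/FL PreCFU-E it was 4 with the replicate block of letters. For KO/FL against FL/FL PreCFU-E it was 1 (Gab2) with no filter on low counts, with DESeq2 and with the replicate block. For Lepr-Cre against FL/FL CFU-E it was 1 with limma on either RPKM scale, where Kit had an adjusted p of 0.0688 and 0.0687. For Lepr-Cre against KO/FL CFU-E it was 0 with DESeq2 size factors and with limma on either scale, and 2 with no filter, with DESeq2 and with the replicate block. For KO/FL against FL/FL CFU-E it was 1 with no filter, and for the interaction of Lepr-Cre against KO/FL mice 1 with the replicate block of mice. The cause was not tested. The block changed no call in Lepr-Cre against FL/FL CFU-E, where the letters were not taken to pair the libraries. Leaving out 1 library at a time gave 0 to 1 called for Lepr-Cre against KO/FL CFU-E, 4 to 5, 4 to 6 and 6 to 7 for the step to CFU-E in Lepr-Cre, KO/FL and FL/FL mice, and the same number as with all libraries for the rest. The log2 fold change of Gab2 in Lepr-Cre against FL/FL PreCFU-E was 0.68 with 1 added to the RPKM, since its values on that scale are low, and up to 1.84 otherwise. With 3 mice a group, differences within the intervals given cannot be shown.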
